A study of Mus musculus with 4 samples.

Results

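The genes described here are those whose symbol in the deposited expression workbook is Gpr followed by a number, the placeholder naming of G protein-coupled receptors found by sequence before a ligand was known. The rule took 94 of the 20193 genes with a symbol. The members were chosen by symbol, but the family was picked on the values of the comparison made below, in which one of its genes, Gpr149, had a log2 fold change of -3.98 where the lowest of any gene was -4.23. The counts and changes of the members are therefore given as a description of these arrays, and support nothing beyond them.

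Expression was measured in C2C12 cells, a mouse myoblast line that can form contractile myotubes, kept in growth medium with 20% fetal bovine serum. The empty vector cells carried the plasmid pcDNA3.1/Zeo(+) and the Myolinc cells carried that plasmid with an insert, the long noncoding RNA Myolinc. Transfection used Lipofectamine 2000, selection was with Zeocin in both groups, and the labels call the second group a polyclonal line although they also speak of selected clones. Each group had 2 arrays, which the labels call biological replicates without naming separate transfections, so plasmid content and selected line cannot be told apart. Any p-value here reflects array-to-array spread, which may be technical.

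G protein-coupled receptors cross the plasma membrane repeatedly and, when bound by a ligand, switch on heterotrimeric G proteins inside the cell, which raise or lower cAMP or release calcium. Receptor kinases and arrestins then end the signal, and RGS proteins speed the return of G proteins to the resting state. Some Gpr genes encode adhesion receptors. These typically, though not always, have a long extracellular part that is cut next to the membrane and binds matrix or neighbouring cells. Others encode receptors since matched to a lipid, metabolite, ion or peptide, and a few encode multi-pass proteins that are not classical receptors. The label "orphan" is thus loose. In the RefSeq annotation of the GRCm38.p6 assembly 93 of the 94 symbols were found, 21 of them under another current symbol, of which 16 carry the adhesion receptor prefix Adgr, and Gpr144 was not matched.

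Promoter sequences are shown for the 4 members with the largest changes among those present in the RefSeq promoter table, the falling genes Gpr64 and Gpr97 and the rising genes Gpr126 and Gpr30. Each window runs from 250 bases before to 50 bases after the annotated start on GRCm38.p6, 5′ to 3′ along the gene. The windows are chrX:160390440-160390739 on the plus strand for Gpr64 (now Adgrg2), chr8:95017442-95017741 on the plus strand for Gpr97 (now Adgrg3), chr10:14544987-14545286 on the minus strand for Gpr126 (now Adgrg6) and chr5:139422929-139423228 on the plus strand for Gpr30 (now Gper1). Capitals mark a match to any of 4 motifs searched on both strands.
Gpr64: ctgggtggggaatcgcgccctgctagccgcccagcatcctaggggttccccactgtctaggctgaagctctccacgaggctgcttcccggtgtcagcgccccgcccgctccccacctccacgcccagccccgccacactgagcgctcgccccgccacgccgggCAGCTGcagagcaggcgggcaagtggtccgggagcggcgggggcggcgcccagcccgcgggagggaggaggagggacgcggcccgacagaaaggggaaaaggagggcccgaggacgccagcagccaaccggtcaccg
Gpr97: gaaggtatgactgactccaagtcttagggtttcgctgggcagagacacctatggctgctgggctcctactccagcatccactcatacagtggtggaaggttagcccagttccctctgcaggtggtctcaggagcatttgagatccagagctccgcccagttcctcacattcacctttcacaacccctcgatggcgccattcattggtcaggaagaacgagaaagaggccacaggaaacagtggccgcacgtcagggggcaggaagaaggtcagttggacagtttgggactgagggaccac
Gpr126: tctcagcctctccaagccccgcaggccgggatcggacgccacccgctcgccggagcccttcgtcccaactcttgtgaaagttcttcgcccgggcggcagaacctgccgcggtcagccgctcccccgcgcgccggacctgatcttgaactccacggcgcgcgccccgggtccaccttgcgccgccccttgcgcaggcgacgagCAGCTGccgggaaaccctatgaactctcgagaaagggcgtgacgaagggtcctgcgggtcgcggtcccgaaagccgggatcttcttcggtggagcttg
Gpr30: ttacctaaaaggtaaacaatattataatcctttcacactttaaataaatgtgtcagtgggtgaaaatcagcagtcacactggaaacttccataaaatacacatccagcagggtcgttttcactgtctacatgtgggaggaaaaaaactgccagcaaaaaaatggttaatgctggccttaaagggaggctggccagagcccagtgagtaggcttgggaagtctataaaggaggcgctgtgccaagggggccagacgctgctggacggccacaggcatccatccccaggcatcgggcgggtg

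The motifs were the E-box that MyoD binds (CAGCTG), the cAMP response element (TGACGTCA), the AP-1 site (TGACTCA) and the TEAD site (GGAATG), and the letters of none contain those of another. Gpr64, which fell, and Gpr126, which rose, each held 1 MyoD E-box, starting 87 and 48 bases before the start, and the windows of Gpr97 and Gpr30 held none of the 4. Of 32851 RefSeq promoter windows of this length 16.3% held the E-box, 1.79% the cAMP response element, 5.2% the AP-1 site and 14.7% the TEAD site. Of the 83 windows of the 66 members in the table, 28.9% held the E-box, 1.2% the cAMP response element, 7.23% the AP-1 site and 12% the TEAD site. The other 28 members, Gpr149 and Gpr124 among them, had no window. Some members had more than 1, and windows of Gpr153 overlap, so that the same E-box was counted again. The difference from all windows was not tested. A match is a string of letters and says nothing of binding in these cells.

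Of the 94 Gpr genes 4 rose, 5 fell and 85 did not pass at an adjusted p under 0.05 in limma, a linear model with moderated variances fitted to all 28944 probe sets and adjusted over the 20193 genes. The share past the threshold was 9.57%, against a background of 9.26% of all genes, 4.61% rising and 4.65% falling; since the family was picked on this comparison, nothing is read from these shares side by side. Its median log2 fold change was 0.02, as was that of all genes, and both are differences on the log2 scale of the Myolinc line minus empty vector. The median of the Gpr genes was -0.03 after a further quantile normalization and -0.02 with arrays centred on their medians or with lower-level probe sets left out, so it has no stable sign. Gpr149, Gpr64 and Gpr124 changed at least 2-fold, and 78 of the 94 genes lay within 0.25 of 0. The authors' deposited table gives 17 members a p-value under 0.05. A limma fit that kept the control probe sets came within 6.8e-05 of the deposited p-values of the members. It put 4814 of all 20193 genes at an unadjusted p under 0.05. In the main limma fit, which leaves those probe sets out, 17 of the 94 members had an unadjusted p under 0.05, beside 5386 of all 20193 genes.

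The level of a receptor decides how well its change can be read. Values of different probe sets depend on the probes as well as on the RNA, so levels were set only against a rough low-end reference, the 1037 olfactory receptor genes on the same arrays, a family best known from the olfactory epithelium, though single members are reported to act in muscle. Their log2 level over the 4 arrays had a median of 5.00 and a 95th percentile of 6.68, and 5 of them rose and 1 fell. Their median log2 fold change was 0.10, against 0.02 for all genes, with 779 positive and 258 negative. Of the Gpr genes 36 had a mean level above 6.68 and 58 did not. In the first set 8 of 36 passed (22.2%), beside 13.9% of the 12566 genes above that level. In the second 1 of 58 did, Gpr64, beside 1.67% of the 7627 genes at or below it. Gpr149 is in the first set only through its empty vector arrays, since its Myolinc readings of 5.42 and 5.52 lie below 6.68. The family was also picked on this comparison, so nothing is read from these shares. The family's levels ran from 4.31 for Gpr174 to 11.48 for Gpr56, with a median of 6.45. In RNA of whole cultures, a gene used by fewer cells and a gene with less RNA per cell cannot be told apart.

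**Figure D1:**
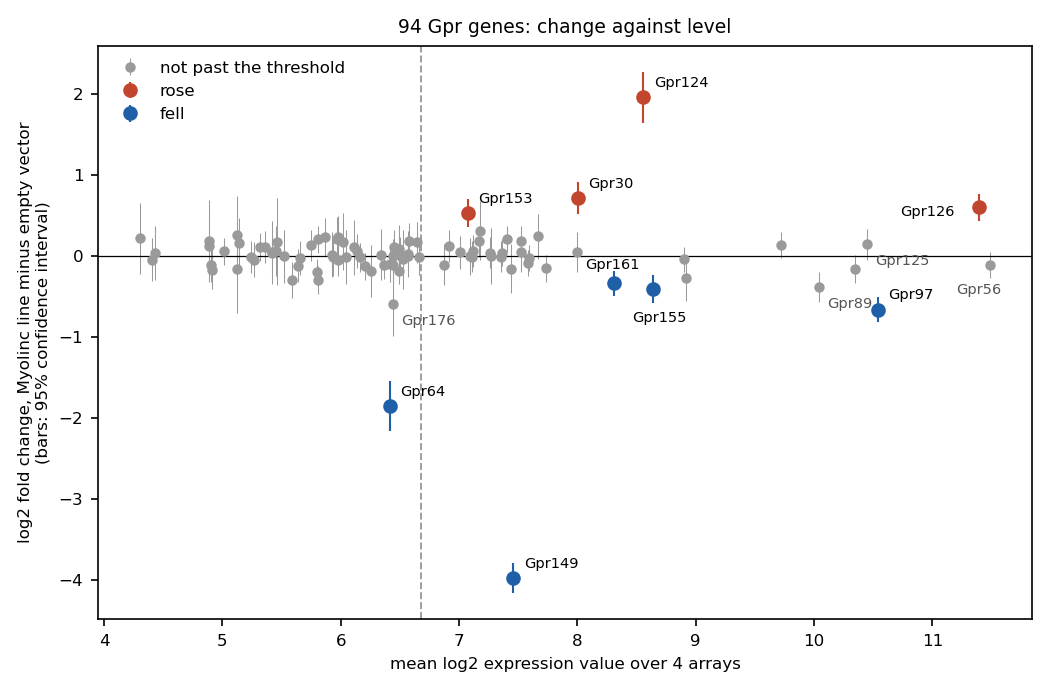
Log2 fold change of the Myolinc line minus empty vector (vertical axis, bars are 95% confidence intervals) against the mean log2 level over 4 arrays (horizontal axis) for the 94 Gpr genes. The dashed line is the 95th percentile of the olfactory receptor genes, 6.68; Gpr149 lies lowest at -3.98 and Gpr124 highest at 1.96, and most other members lie near 0.

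The largest change was a fall. Gpr149 (probe set 10498441, chromosome 3), an orphan receptor of the rhodopsin family known in the mouse from the ovary and oocyte, read 9.42 and 9.47 in the empty vector arrays and 5.42 and 5.52 in the Myolinc arrays. Both empty vector values were far above both Myolinc values, and the latter lay inside the range of most olfactory receptor genes. The log2 fold change was -3.98 (SE 0.07, 95% confidence interval -4.16 to -3.79, n = 2 per group), 15.7-fold lower in the Myolinc line. Since the lower readings sit at the low end of the scale, this is a fold between readings.

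Gpr64 (probe set 10602896, chromosome X), an adhesion receptor known for fluid handling in the epididymis, read 7.35 and 7.33 with empty vector and 5.63 and 5.35 in the Myolinc line. The groups did not overlap, and the Myolinc arrays differed from each other by more than the empty vector arrays did (SD 0.20 and 0.02). Its log2 fold change was -1.85 (SE 0.11), 3.61-fold lower, again into the range of most olfactory receptor genes. Its mean level over the 4 arrays was 6.41.

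The remaining falls were of less than 2-fold and in genes that stayed well above the low end. Gpr97 (probe set 10574276, chromosome 8), an adhesion receptor known from granulocytes and other leukocytes, read 10.86 and 10.88 with empty vector and 10.22 and 10.20 in the Myolinc line, a log2 fold change of -0.66 (SE 0.06). Gpr155, a multi-pass protein that senses cholesterol at the lysosome, read 8.81 and 8.87 against 8.47 and 8.41, a log2 fold change of -0.41 (SE 0.06). Gpr161, a receptor of the primary cilium that keeps Hedgehog signalling low through cAMP, read 8.48 and 8.48 against 8.14 and 8.15, a log2 fold change of -0.33 (SE 0.06). In all 3 genes the arrays of each group lay within 0.1 of each other and the groups did not overlap.

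Among the rises, Gpr124 (probe set 10571142, chromosome 8) had the largest. It is an adhesion receptor that acts with Reck as a co-receptor for Wnt7 ligands in brain blood vessels, and it read 7.52 and 7.63 with empty vector and 9.40 and 9.68 in the Myolinc line. The log2 fold change was 1.96 (SE 0.12, 95% confidence interval 1.64 to 2.28), 3.90-fold higher. Both Myolinc values exceeded both empty vector values, and all 4 lay above the 95th percentile of the olfactory receptor genes.

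Gpr30, a receptor proposed to respond to estrogen, read 7.71 and 7.57 with empty vector and 8.35 and 8.37 in the Myolinc line, a log2 fold change of 0.72 (SE 0.07). Gpr126, an adhesion receptor needed in Schwann cells for myelination, read 11.07 and 11.12 against 11.67 and 11.73, a log2 fold change of 0.60 (SE 0.06). Gpr153, an orphan of the rhodopsin family, read 6.77 and 6.85 against 7.33 and 7.36, a log2 fold change of 0.53 (SE 0.06), from a starting level close to the 95th percentile of the olfactory receptor genes. In each of these 3 genes both Myolinc arrays were above both empty vector arrays.

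**Figure D2:**
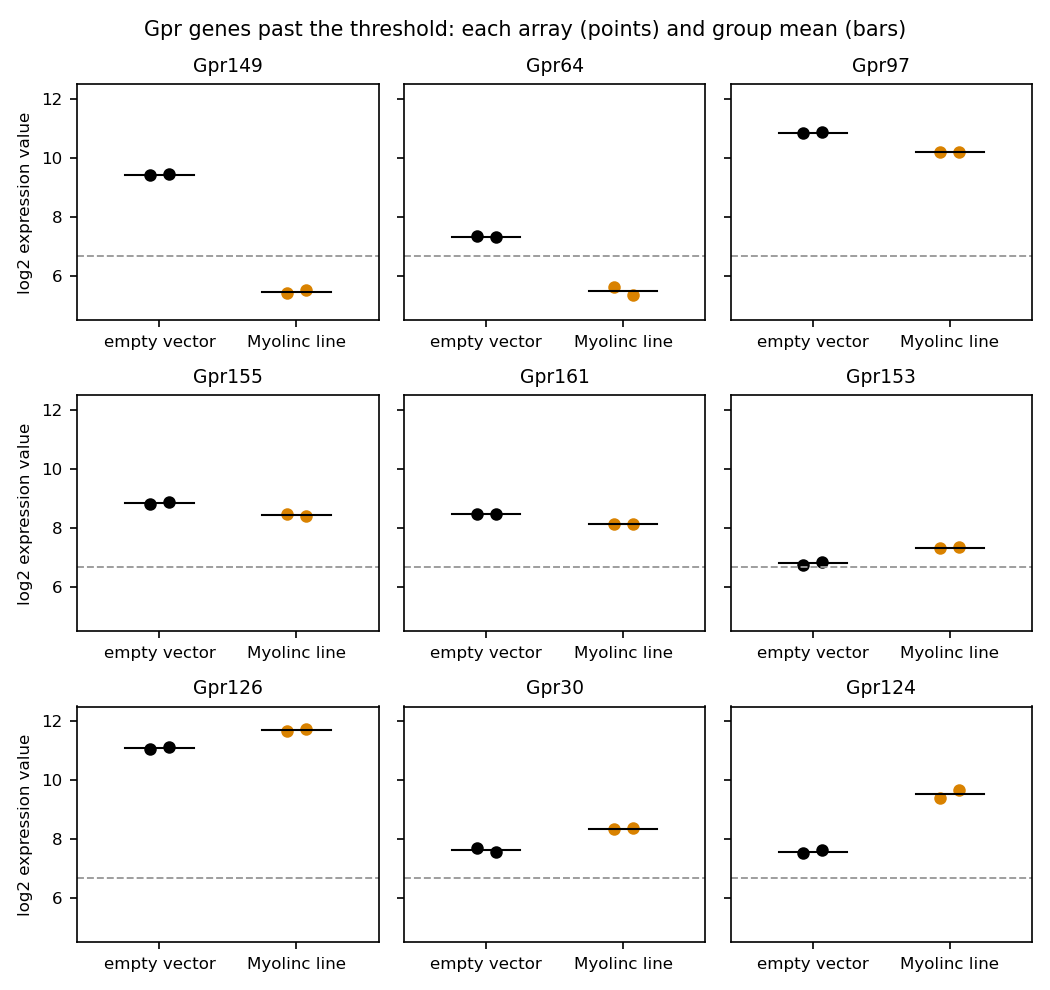
Log2 expression value (vertical axis) of the 9 Gpr genes past the threshold on each array, with empty vector arrays in black and Myolinc arrays in orange; horizontal bars are group means and the dashed line is 6.68, the 95th percentile of the olfactory receptor genes. Gpr149 and Gpr64 end below the dashed line in the Myolinc line, and the other 7 genes stay above it in both groups.

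Several members missed the threshold narrowly or had wide spread. Gpr89, a Golgi anion channel that regulates the pH of that organelle, missed it by least, with 10.17 and 10.29 in empty vector cells and 9.85 and 9.84 in the Myolinc line (log2 fold change -0.38, SE 0.07, limma adjusted p = 0.0504). Just inside the threshold was Gpr161 (limma adjusted p = 0.0425), so these 2 members hardly differ in the strength of their calls. Gpr176, which sets the pace of the circadian clock in the mouse suprachiasmatic nucleus, read 6.70 and 6.77 against 5.96 and 6.34. Its log2 fold change of -0.59 (SE 0.14) was larger than that of Gpr155 or Gpr161, but its Myolinc arrays differed by more. Gpr1, a receptor for the adipokine chemerin, had a log2 fold change of -0.29 (SE 0.06) at a low level of 5.81.

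Without a threshold, both Myolinc arrays lay on one side of both empty vector arrays for 47 of the 94 Gpr genes, higher in the Myolinc line for 24 and lower for 23. The background for this was 53.9% of all genes. Of the 85 members that did not pass, all had a 95% confidence interval inside a change of 2-fold either way, and 70 inside 0.5 on the log2 scale. Among all 20193 genes, passing or not, 19622 and 15180 did. The threshold had already taken out the members with the clearest changes, so narrow intervals near 0 are partly built in. Of the 85, 57 had levels at or below 6.68, where an interval bounds the readings and may not bound the change in RNA. The intervals of the remaining 15, such as Gpr176, Gpr65, Gpr171 and Gpr20, reached past 0.5.

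By class, the adhesion receptors held both rises and falls. Of 17 measured, Gpr124 and Gpr126 rose, Gpr64 and Gpr97 fell and 13 did not pass, with a median log2 fold change of 0.01. Outside them 2 of 77 Gpr genes rose and 3 fell. The background for this and the other classes was 9.26% of all genes past the threshold. The difference between the adhesion receptors and the other Gpr genes was not tested, because the classes were drawn up with earlier results of these data known.

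Gpr56, an adhesion receptor that binds collagen and is known from cortical development and from muscle, read 11.51 and 11.57 with empty vector and 11.43 and 11.43 in the Myolinc line. It had a log2 fold change of -0.11 (SE 0.06, 95% confidence interval -0.27 to 0.06). Gpr125, an adhesion receptor related to Gpr124, read 10.32 and 10.43 against 10.55 and 10.50, a log2 fold change of 0.15 (SE 0.07, 95% confidence interval -0.04 to 0.34). For both, the interval leaves room only for a change far smaller than that of Gpr124. Gpr123, the other relative of Gpr124, had a log2 fold change of 0.25 (SE 0.10) and did not pass. Gpr98, Gpr110, Gpr111, Gpr112, Gpr115, Gpr116, Gpr128, Gpr133 and Gpr144 had log2 fold changes between -0.19 (Gpr116) and 0.21 (Gpr128), at levels under 6.68.

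**Figure D3:**
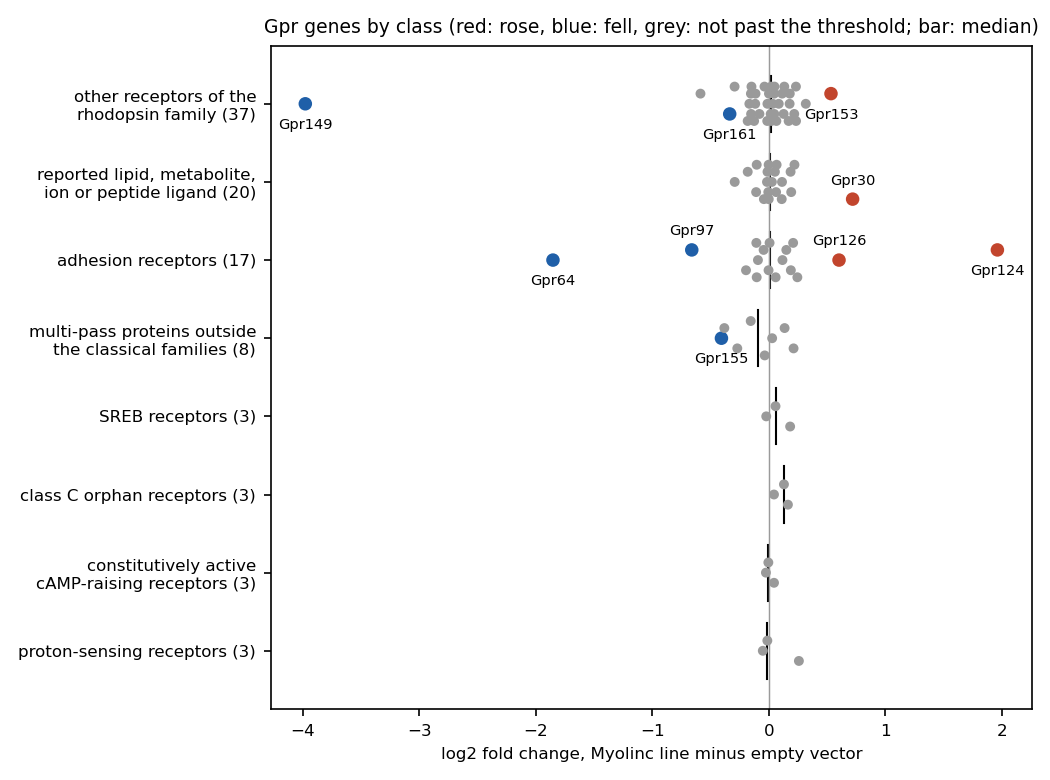
Log2 fold change of the Myolinc line minus empty vector (horizontal axis) for each Gpr gene, in rows by class with the number of genes in brackets; red points rose, blue points fell, grey points did not pass and black bars are class medians. The adhesion receptors, 17 of the 94 genes, hold 4 of the 9 coloured points, and Gpr149 lies far to the left at -3.98. Of all genes 9.26% passed.

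Of the multi-pass proteins outside the classical families 6 of 8 lay above 6.68. Gpr155 fell and the other 7 did not pass. Gpr107 and Gpr108, related proteins of the Golgi and endosomes, had log2 fold changes of opposite sign, -0.15 (SE 0.06) and 0.14 (SE 0.06). Gpr107 read 10.39 and 10.46 against 10.25 and 10.29, and Gpr108 read 9.67 and 9.63 against 9.77 and 9.80. Gpr180 read 8.93 and 9.17 against 8.75 and 8.81 (log2 fold change -0.27, SE 0.11). Gpr172b, a riboflavin transporter now named Slc52a2, had a log2 fold change of -0.03, and Gpr137b and Gpr137c, of the lysosome, had 0.21 and 0.03 at low levels.

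Of the 20 receptors listed here under a reported lipid, metabolite, ion or peptide ligand, a list that may not be complete, Gpr30 rose and 19 did not pass. The other 19 lay between -0.29 (Gpr1) and 0.22 (Gpr174), and 4 of them, Gpr18, Gpr31c, Gpr35 and Gpr75, had levels above 6.68. Gpr81, the lactate receptor, stood at a level of 6.44 with a log2 fold change of -0.10, and Gpr55, a lysophosphatidylinositol receptor, at 6.26 with -0.18. Among the receptors in this class known from leukocytes, Gpr34 (4.40), Gpr174 (4.31), Gpr84 (6.14), Gpr183 (6.17), Gpr132 (6.58) and Gpr77 (6.66) read below 6.68. Gpr18 (7.17) and Gpr35 (7.09) read above it.

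The 3 constitutively active receptors that raise cAMP without a known need for ligand, Gpr3, Gpr6 and Gpr12, lay between -0.02 and 0.05, and their arrays overlapped between groups. The proton sensors Gpr4 (-0.01) and Gpr65 (0.26) had levels under 6.68 and did not pass. The class C orphans Gpr158 (0.16) and Gpr179 (0.05) and the brain receptors Gpr27, Gpr85 and Gpr173 (-0.02 to 0.18) did not pass either. The other 37 Gpr genes were on no class list and were grouped by default as other receptors of the rhodopsin family. Of these, Gpr153 rose, Gpr149 and Gpr161 fell, and 34 lay between -0.59 (Gpr176) and 0.32 (Gpr20). Gpr20 read 7.17 and 6.87 against 7.44 and 7.24, so that its groups were separated by less than the spread within either.

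Cell identity was checked beside these values. All 8 myoblast markers (Myod1, Myf5, Des, Cdh15, Ncam1, Vcam1, Itga7 and Met) read above 6.68 in both groups. Among them Myf5, Des, Cdh15 and Itga7, 4 of the 8, rose, beside 4.61% of all genes. The mean of the 8 was 10.66 and 10.67 in the empty vector arrays and 10.98 and 11.02 in the Myolinc arrays. By log2 fold change Itga7 moved most (1.23). The 4 that did not pass were Vcam1 (0.34), Ncam1 (0.12), Myod1 (0.07) and Met (-0.27). Of the macrophage and leukocyte markers 1 of 8, Cd68, lay above 6.68 and fell, and their mean lay between 6.08 and 6.21 on the 4 arrays. Of the endothelial markers, which bear on Gpr124, 1 of 8 with empty vector and 2 of 8 in the Myolinc line lay above 6.68, with means of 6.12 to 6.25, and 0 passed. Of the neuronal markers 4 of 6 lay above it, with means of 6.94 and 7.04 against 7.48 and 7.49. Of these Nefl, a neurofilament subunit, rose (log2 fold change 3.27, SE 0.06, limma adjusted p = 0.0016), and the other 5, among them Nefm (-0.42) and Syt1 (-0.05), did not pass. Of the adipocyte markers 4 of 8 lay above 6.68, with means of 6.73 to 6.87, and 0 passed. The part of other cell types in the changes of the receptors was not tested.

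The genes on either side of the changed receptors were then compared, using RefSeq gene order. Of the 36 measured genes that are the 2 nearest on each side of the 9 receptors, 5 passed, beside 9.26% of all genes. Among the 5, 3 went in the direction of their receptor and 2 against it. The 3 were Aig1 (log2 fold change 1.41, SE 0.07), Hivep2 (0.85, SE 0.07) and Vta1 (0.38, SE 0.07), all beside Gpr126, and the 2 were Sft2d2 (0.75, SE 0.07) and Dcaf6 (0.42, SE 0.07), which rose beside Gpr161. The 4 nearest genes of Gpr149, Gpr64, Gpr97, Gpr155, Gpr153, Gpr30 and Gpr124 did not pass. Gpr56 and Gpr97 lie next to each other on chromosome 8, where Gpr97 passed and Gpr56 did not. The difference between these neighbours was not tested.

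**Figure D4:**
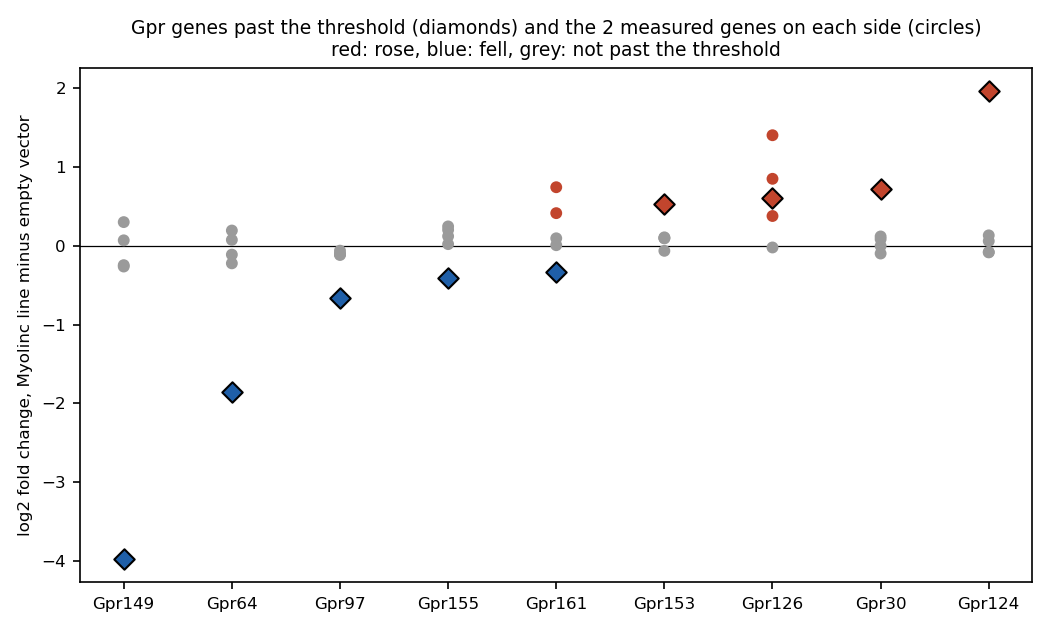
Log2 fold change of the Myolinc line minus empty vector (vertical axis) for the 9 Gpr genes past the threshold (diamonds, along the horizontal axis) and for the 2 measured genes on each side of them (circles); red rose, blue fell, grey did not pass. Gpr126 has 3 red neighbours, and Gpr149 and Gpr124 lie far from all of theirs.

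Chromosome medians, taken over genes above the median level, were small beside most of these changes. The median log2 fold change was -0.13 on chromosome 8, which carries Gpr97 and Gpr124, 0.08 on chromosome 10, which carries Gpr126, and -0.14 on chromosome 2, which carries Gpr155. With these medians removed Gpr155 had a log2 fold change of -0.26 and no longer passed (limma adjusted p = 0.0907), and the other 8 still did.

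The genes that carry or end receptor signals were looked at next. Of 112 measured in 5 lists 2 rose, 6 fell and 104 did not pass, 7.14% beside the background of 9.26%, and the median log2 fold change was 0.0028. These genes are no members of the family. The lists were drawn up by function but with earlier results of these data known, so nothing is read from these shares side by side.

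Among G protein subunits, Gnb5, a beta subunit that pairs with RGS proteins, read 8.74 and 8.75 with empty vector and 9.63 and 9.64 in the Myolinc line. Its log2 fold change was 0.89 (SE 0.06, limma adjusted p = 0.0103). Gnao1, an alpha subunit of the inhibitory family, read 11.38 and 11.36 against 11.02 and 10.95, a log2 fold change of -0.39 (SE 0.06, limma adjusted p = 0.0370). The other 29 subunits measured did not pass.

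Of 21 RGS genes 2 fell. Rgs17, which acts on G proteins of the inhibitory family, read 7.08 and 7.22 against 6.07 and 6.13, a log2 fold change of -1.05 (SE 0.08, limma adjusted p = 0.0130). Its Myolinc readings lie under 6.68, so this too is a difference between readings at the low end. Rgs12 had -0.63 (SE 0.06, limma adjusted p = 0.0180). Of the 20 receptor kinases, arrestins and chaperones, the receptor kinase gene Grk6 fell by 0.49 (SE 0.06, limma adjusted p = 0.0241) and Arrb1, which encodes beta-arrestin, fell by 0.55 (SE 0.07, limma adjusted p = 0.0257) on the log2 scale.

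Of 27 genes of the cAMP machinery, the cAMP phosphodiesterase gene Pde4b fell by 0.57 on the log2 scale (SE 0.08, limma adjusted p = 0.0297) and 26 did not pass. Of 13 genes of the phospholipase C and inositol trisphosphate machinery, Plcb3 rose by 0.39 (SE 0.06, limma adjusted p = 0.0383) and 12 did not pass.

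**Figure D5:**
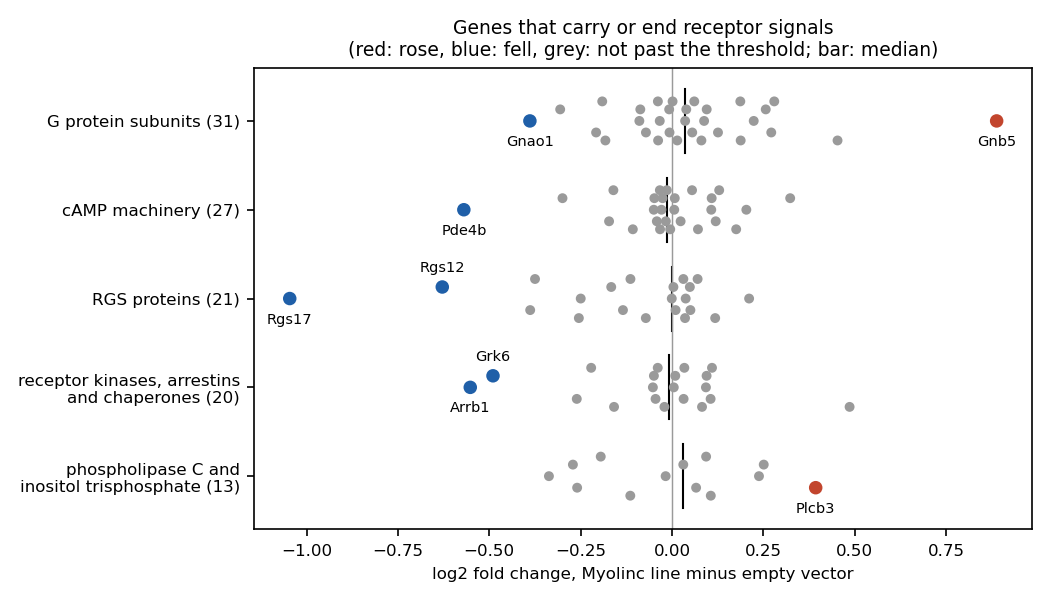
Log2 fold change of the Myolinc line minus empty vector (horizontal axis) for 112 genes that carry or end receptor signals, in rows by list with the number of genes in brackets; red rose, blue fell, grey did not pass and black bars are list medians. Gnb5 lies farthest right at 0.89 and Rgs17 farthest left at -1.05.

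The calls depend on which arrays are in the fit, most of all on having both empty vector arrays. An array left alone in its group is assumed to vary like the other pair. Without empty vector replicate 1, and likewise without replicate 2, 0 Gpr genes and 0 genes in all passed in limma, with 17 and 12 Gpr genes, and 3639 and 3322 genes in all, at an unadjusted p under 0.05, while the log2 fold changes moved little, to -4.001 and -3.953 for Gpr149 and 1.91 and 2.02 for Gpr124. Without Myolinc replicate 1 or 2, 6 and 7 Gpr genes passed, and 644 and 1226 genes in all. Gpr155 and Gpr161 also did not pass with one or the other Myolinc array left out, or when the control probe sets stayed in the fit. Gpr153 did not pass with one or the other Myolinc array left out. With a replicate block, 3 Gpr genes passed (Gpr149, Gpr64 and Gpr124).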

How the data were processed

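Per the submitters' processing notes the deposited log2 values were made by the authors with RMA, and limma is named. No version is given. Per the file headers, the authors deposited for each gene a p-value beside its log2 fold change, with the adjustment not stated. For the members, the deposited log2 fold changes differed from those computed here by at most 0.0005. The deposited p-values differed by up to 0.029, and by at most 6.8e-05 with the control range kept in the fit.

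From the 35556 rows, 6612 in the control range of probe set numbers were left out. A limma fit (3.58.1, R 4.3.3, default lmFit and eBayes, residual degrees of freedom 2, prior 2.18) on 28944 probe sets compared the Myolinc line with empty vector in 2-sided tests, adjusted by Benjamini-Hochberg over 20193 genes. Standard errors are moderated. No filter on level was used. Array medians were 7.24 to 7.35. The number of arrays limits the precision. An exact permutation test of 2 against 2 cannot go below 0.333. The fit was tested on simulated data. Figures used matplotlib 3.10.9 in Python 3.11.15.

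Members, classes, signalling lists, tests and the naming rule (every member past the threshold, the 8 largest rises and falls, the 8 highest levels, the narrowest pass and miss, up to 4 genes per signalling list) were chosen with earlier results of these data known. Members named beyond that rule were chosen after their values were seen. Alternatives tried were a replicate block, another variance model, a level filter, normalization, centring, rows fitted, no moderation and leaving out each array. Keeping the control range and removing chromosome medians were added after seeing the data. Some members counted here are not reported by name.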

Additional observations from a re-analysis of the deposited data

How the results depend on the processing

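The number of Gpr genes past the threshold was 9, and 8 to 11 under 6 of the alternatives (a trended and robust variance model, lower-level probe sets left out, further quantile normalization, centring, rows with a symbol alone, chromosome medians removed) and 7 with the control range kept. With a replicate block it was 3 (Gpr149, Gpr64 and Gpr124), with an ordinary linear model 0 (17 at an unadjusted p under 0.05), and leaving out 1 array it ran from 0 to 7. With lower-level probe sets left out, Gpr64 and Gpr153 were not among the 25 Gpr genes fitted. That filter kept mean levels above 7.27, and Gpr149 met it only through its empty vector arrays. It also left 58 of the 112 signalling genes and 10523 of all 20193 genes, so its counts below are of smaller sets. The shares past the threshold were then 36% of the Gpr genes, 41.4% of the signalling genes and 41.3% of all genes. Signalling genes went from 8 to 2 with a replicate block, 21 with the trended and robust variance, 24 with lower-level probe sets left out, 5 with the control range kept, 0 with the ordinary linear model (22 unadjusted) and 0 to 5 leaving out 1 array. All genes went from 1870 to 362, 4342, 4346, 887, 0 (4577 unadjusted) and 0 to 1226 under the same settings. The cause of these differences was not tested.

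The median log2 fold change of the Gpr genes, 0.02, was -0.0213 with lower-level probe sets left out, -0.0311 after quantile normalization, -0.0226 with centring and -0.0161 to 0.0793 leaving out 1 array. Of the Gpr genes 36 lay above the 95th percentile of the olfactory receptor genes, 54 above the 90th and 20 above the 99th. Gpr56, which had not passed, changed sign to 0.0206 with chromosome medians removed, and the other 20 Gpr genes of the naming rule kept their sign in every fit that held them. Members outside that rule were not followed across settings. Gpr89 passed in 4 alternatives, Gpr176 in 2 and Gpr19 with lower-level probe sets left out. The deviations of arrays that share replicate number 1 correlated at 0.215, which with 2 arrays per group does not show pairing, so the replicate block was used only as an alternative. With 2 arrays per group and no detection calls, changes among the 58 Gpr genes at or below 6.68 cannot be read well.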
